A study of Mus musculus with 9 samples.

Results

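The genes described here are those of the small nucleolar RNAs (snoRNAs) and of the small Cajal body RNAs (scaRNAs). They were taken from the count table by symbol: Snord for box C/D snoRNAs, Snora for box H/ACA snoRNAs and Scarna for scaRNAs, each followed by a number. The table of 24421 genes held 119 such symbols, 74 of them Snord, 36 Snora and 9 Scarna. Of these, 59 had at least 10 counts in 3 or more libraries, and these 59 are called kept genes: 36 of box C/D, 23 of box H/ACA and 0 of the Scarna genes. The other 60 lay below the minimum. Just inside it stood Snord33, with 3 to 13 counts per library, and just outside it Snord42a, with 5 to 16 counts and a mean of 8.89.

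The libraries came from bone marrow cells of C57BL/6 mice, either wild type (WT) or of the genotype Tet2-/-Flt3ITD, called mutant below, which joins loss of Tet2, an enzyme that oxidizes methylated cytosine, to an internal tandem duplication in the receptor kinase Flt3. Lineage-positive cells had been removed, and the remainder was expanded for 5 days in IL-3, IL-6 and SCF to give myeloid cells resembling blasts, so the cells are cultured progeny and not fresh marrow. WT cells received vehicle, and mutant cells received vehicle or SHP099, an allosteric inhibitor of the phosphatase SHP2 (gene Ptpn11), for 24 h. Each of the 3 groups had 3 libraries from cultures of individual mice; a WT group with SHP099 was not analysed here, and the sources used here do not give the age of the mice or the dose.

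SnoRNAs are short RNAs of the nucleolus. Most mammalian ones lie in introns of a host gene and are released when the host transcript is spliced, after which nucleases trim the ends up to the bound proteins. Box C/D snoRNAs bind fibrillarin (Fbl), Nop56, Nop58 and Snu13 and guide methylation of the ribose of ribosomal RNA. Box H/ACA snoRNAs bind dyskerin (Dkc1), Gar1, Nhp2 and Nop10 and guide the change of uridine to pseudouridine. ScaRNAs carry the same boxes and act on spliceosomal RNAs in Cajal bodies. Mature snoRNAs have no poly(A) tail, while the libraries were made with a stranded mRNA kit, so the counts hold whatever short or unspliced RNA passed into such a library: reads of a mature snoRNA and of a host transcript that still held the intron cannot be told apart here.

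The sequences of 8 kept genes are shown because the largest changes and the highest levels of each class are among them. They are the annotated transcripts of GENCODE M21 on GRCm38, written as DNA from 5′ to 3′, with the boxes in capitals. In the box C/D genes the capitals mark box C (TGATGA) and the last CTGA, box D:
Snord110: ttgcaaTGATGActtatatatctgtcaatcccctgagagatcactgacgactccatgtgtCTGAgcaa
Snord57: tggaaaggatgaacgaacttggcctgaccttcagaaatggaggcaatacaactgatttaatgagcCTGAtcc
Snord47: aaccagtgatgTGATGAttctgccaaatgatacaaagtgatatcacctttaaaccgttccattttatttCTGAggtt
Snord34: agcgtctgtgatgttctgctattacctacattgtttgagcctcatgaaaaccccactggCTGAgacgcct
Snord22: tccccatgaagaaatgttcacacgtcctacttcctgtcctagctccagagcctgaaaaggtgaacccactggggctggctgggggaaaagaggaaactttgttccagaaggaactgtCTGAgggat
In the box H/ACA genes they mark the ANANNA nearest the middle, box H, and the ACA that lies 3 bases before the end:
Snora75: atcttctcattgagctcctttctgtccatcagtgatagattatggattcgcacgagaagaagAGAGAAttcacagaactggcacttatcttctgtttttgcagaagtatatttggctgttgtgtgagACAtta
Snora61: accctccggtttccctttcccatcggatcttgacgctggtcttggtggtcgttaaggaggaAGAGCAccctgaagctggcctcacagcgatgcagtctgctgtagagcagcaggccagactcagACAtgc
Snora70: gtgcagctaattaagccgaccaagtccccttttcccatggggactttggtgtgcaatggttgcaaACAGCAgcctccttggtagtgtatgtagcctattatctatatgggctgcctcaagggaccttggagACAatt
Snord110 lies at chr2:130275506-130275573 and Snord57 at chr2:130278016-130278087, both on the plus strand in introns of Nop56. Snord47 lies at chr1:161038082-161038158 (plus strand, in Gas5), Snord34 at chr7:45126601-45126670 (minus strand, in Rpl13a) and Snord22 at chr19:8725866-8725991 (plus strand, in Snhg1). Snora75 lies at chr1:86351169-86351301 (minus strand, in Ncl), Snora61 at chr4:132310240-132310369 (plus strand, in Snhg12) and Snora70 at chrX:74272484-74272620 (plus strand, in Rpl10). Snord110 and Snord34 are intronic in all annotated host transcripts that span them, while each of the other 6 is intronic in some and overlaps an exon in at least 1. The exact TGATGA is missing from the first 50% of the length of Snord57, Snord34 and Snord22, in which no box C is marked.

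A single annotated sequence was found for 57 of the 59 kept genes; Snora43 and Snora16a each matched 2 annotated genes. Box C/D genes were 64 to 238 bases long, with a median of 76, and box H/ACA genes 127 to 196, with a median of 132. On the strand of the gene, TGATGA starting in the first 50% of the length was present in 25 of 36 box C/D genes (69.4%), in 0 of 21 box H/ACA genes and in 1.89% of 1005 RefSeq mouse miRNA hairpins, which served as other short RNAs. CTGA in the last 20 bases was present in 94.4% of box C/D genes, 9.52% of box H/ACA genes and 10.7% of hairpins. The ACA at 3 bases from the end was present in 16 of 21 box H/ACA genes (76.2%), in 0 box C/D genes and in 1.59% of hairpins, and ANANNA starting between 40% and 60% of the length in 85.7%, 25% and 22.3% of these sets. On the opposite strand the shares for the class that carries each box were 0% for TGATGA, 5.56% for CTGA, 0% for ACA and 19% for ANANNA; a match is a description and not a mapped site. Another annotated short RNA gene matched at 95% identity or more over at least 90% of the length for 9 kept genes, among them Snora65, Snora68, Snora81 and Snord95, and reads of such copies may be shared between genes.

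The libraries held 27242168 to 45810089 counts. Tet2 averaged 33.2 CPM (the usual depth-scaled count, here on TMM-scaled library sizes) in WT, 15.5 in mutant vehicle and 12.4 in mutant SHP099 libraries, lower in the mutant as labelled. Rn45s, the ribosomal RNA precursor gene, took 0.377% to 0.705% of the counts in WT, 0.276% to 0.357% in mutant vehicle and 0.734%, 0.658% and 4.33% in SHP099 replicates 1 to 3, of which replicate 3 stood apart. Counts per library summed over all 119 symbols were 1720 to 3031 in WT, 2733 to 3322 in mutant vehicle and 1830 to 1914 in SHP099 libraries. The kept genes are thus low-count genes, and the number of reads limits the precision for most of them. Mature neutrophil markers (10 genes) summed to 24123 to 30545 CPM in WT, 17595 to 18676 in mutant vehicle and 25448 to 30444 in SHP099 libraries; for mast cell and basophil markers (9 genes) these ranges were 2468 to 2787, 1277 to 1854 and 1824 to 2432, and for megakaryocyte markers (8 genes) 2534 to 3191, 1143 to 1540 and 1448 to 1906, with 0 markers of these lists at zero. Of the 10 neutrophil markers, 7 were lower and 1 higher in mutant vehicle than WT cells (edgeR adjusted p under 0.05). In SHP099-treated mutant cells 3 were lower and 1 higher than in WT, so the sums do not describe each marker. Over all tested genes 14.7% were lower and 16.9% higher in the first comparison, and 16.3% and 15.4% in the second. The part of these shifts in the results below was not tested, and in bulk RNA fewer cells of a type and less RNA per cell cannot be told apart.

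As a class, snoRNA genes were highest in mutant cells with vehicle, intermediate in WT cells and lowest in mutant cells with SHP099. The summed level of the 36 box C/D genes was 30.1, 34.0 and 40.1 CPM in WT replicates 1 to 3, 50.1, 44.7 and 48.0 in mutant vehicle and 23.2, 24.6 and 27.6 in mutant SHP099 libraries. The 23 box H/ACA genes summed to 22.6, 24.9 and 28.6, then 31.5, 30.0 and 31.5, then 16.8, 16.3 and 17.6 CPM. In both classes the 3 groups did not overlap. With SHP099 the mean box C/D sum was 0.527 of that with vehicle and the mean box H/ACA sum 0.545. Mutant vehicle cells stood at 1.37 times the WT mean for box C/D and at 1.22 times for box H/ACA. The ratio of the box C/D to the box H/ACA sum was 1.37 ± 0.04 (SD, n = 3) in WT, 1.54 ± 0.05 in mutant vehicle and 1.48 ± 0.10 in mutant SHP099 libraries. The mutant vehicle ratios, 1.49 to 1.59, all lay above the WT ratios, 1.33 to 1.40, while the SHP099 ratios, 1.38 to 1.57, overlapped both. Summed over all symbols of a class, those below the minimum included, the SHP099 means were 0.530 of vehicle for box C/D and 0.546 for box H/ACA. The share of Rn45s, an RNA without a poly(A) tail, had the opposite order in the mutant groups: every SHP099 library lay above every mutant vehicle library (log2 fold change 2.71, edgeR adjusted p = 0.0189). In SHP099 libraries Rn45s averaged 19876 CPM with an SD of 22302 CPM, above the mean. Replicate 3 held 4.33% of its library's counts, and replicates 1 and 2 held 0.734% and 0.658%, so replicate 3 dominates the size of this change. The part of Rn45s in the snoRNA changes was not tested.

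**Figure D1:**
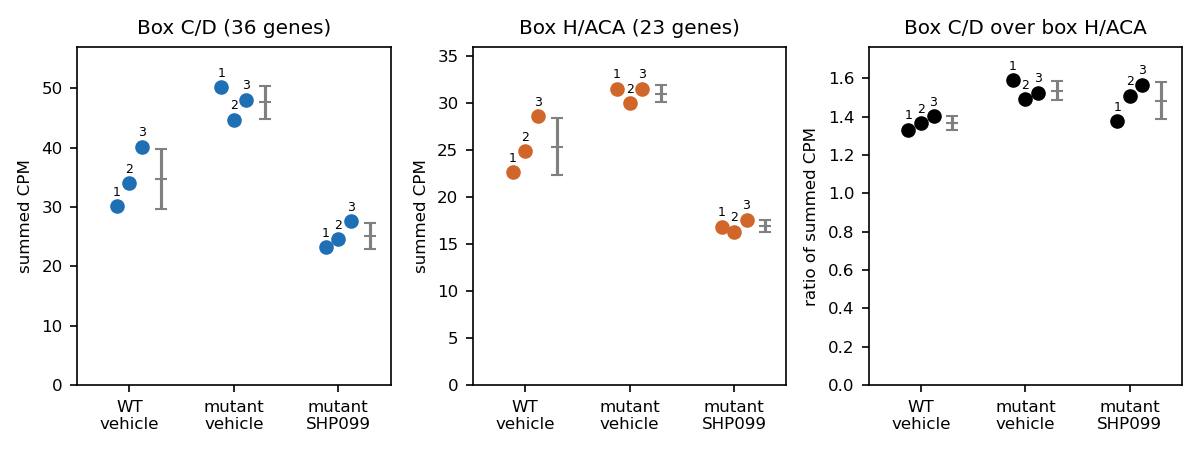
Summed CPM of the 36 kept box C/D genes (left) and the 23 kept box H/ACA genes (middle), and their ratio (right), in each library; numbers are replicates, and grey bars give the group mean ± SD (n = 3). Both sums are highest in mutant vehicle and lowest in mutant SHP099 libraries, with no overlap between groups, and the ratio overlaps between the mutant groups.

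A few genes carried much of each class sum: in box C/D, Snord22, Snord96a, Snord100 and Snord12 held 40.02% of the counts, and in box H/ACA, Snora70, Snora65, Snora68 and Snora64 held 47.5%. Per kilobase of transcript, mean levels over the 9 libraries reached 45.6 CPM per kb for Snord96a, 42.8 for Snord100 and 41.6 for Snord22, and 26.4 for Snora65 and 25.5 for Snora70. The medians were 7.63 CPM per kb for box C/D genes and 4.97 for box H/ACA genes. The class levels therefore overlapped widely, and the lowest kept gene, Snora74a, stood at 1.22 CPM per kb.

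The first question was how these transcripts respond when SHP2 is inhibited in mutant cells. Of the 59 kept genes, 34 fell and 0 rose (edgeR quasi-likelihood test, Benjamini-Hochberg adjusted p under 0.05 over 13270 genes), while 13% of all tested genes fell and 8.81% rose. At an unadjusted p under 0.05 the counts were 44 and 0, and the share of all tested genes at that level was not counted. DESeq2 called 0 higher as well, but gave no adjusted p for 35 of the 59. The change was negative in 58 of 59 genes, with a median log2 fold change of -0.89 against 0.00 over all tested genes. Libraries did not overlap, with SHP099 below vehicle, for 48 kept genes (81.4%) and for 22.4% of all tested genes. By class, 20 of 36 box C/D genes fell, with a median of -0.92, and 14 of 23 box H/ACA genes, with a median of -0.88. Since a gene can reach the minimum through the group in which it is high, the same was counted where that choice matters less: of 36 genes with a mean of 20 counts or more over the 9 libraries 28 fell, and of 38 genes that reached 10 counts in all 9 libraries 29 fell.

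**Figure D2:**
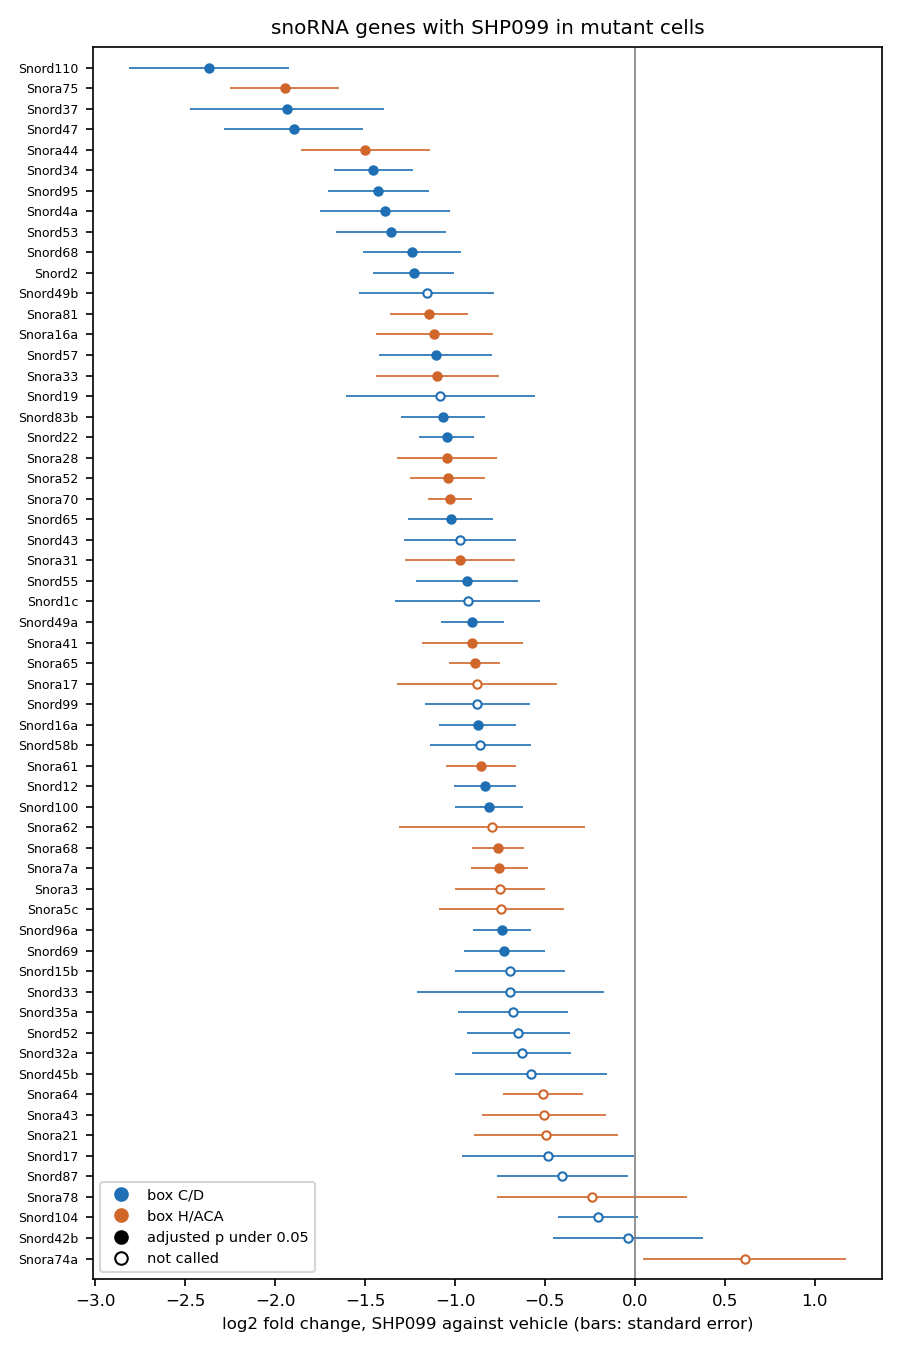
Log2 fold change with SHP099 against vehicle in mutant cells for the 59 kept snoRNA genes, with standard errors; blue marks box C/D, orange box H/ACA, and filled points an adjusted p under 0.05 (edgeR). All but Snora74a lie below 0, and the classes are interleaved from Snord110 at -2.37 upward.

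Among the abundant box C/D genes, Snord22, which takes part in processing the precursor of small-subunit ribosomal RNA, was counted at 8.22, 6.87 and 6.21 CPM with vehicle and at 3.35, 3.34 and 3.60 CPM with SHP099. The SHP099 libraries lay close together and below all 3 vehicle libraries, and the log2 fold change was -1.05, with a standard error of 0.15 (adjusted p = 0.00177, edgeR); errors of log2 changes below are standard errors. Snord96a stood at 4.65, 3.77 and 5.64 CPM with vehicle and at 2.91, 2.58 and 2.90 CPM with SHP099, a change of -0.74 ± 0.16 (edgeR adjusted p = 0.0104). Snord100 stood at 3.86, 3.86 and 4.60 CPM and at 1.92, 2.49 and 2.62 CPM, a change of -0.81 ± 0.19 (edgeR adjusted p = 0.0145). In neither gene did the groups overlap. Snord2, hosted by the translation initiation factor gene Eif4a2, fell from 3.76, 2.84 and 2.71 to 0.949, 1.35 and 1.67 CPM, by -1.23 ± 0.23 on the log2 scale (edgeR adjusted p = 0.0049).

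The largest changes came from genes with few counts. Snord110, whose sequence is shown above with both boxes, had 15, 9 and 13 counts with vehicle and 2, 3 and 3 with SHP099. Its log2 fold change was -2.37 ± 0.45 (edgeR adjusted p = 0.00551), and it was the lowest of all 13270 tested genes in this contrast. Snord37, in the gene of elongation factor Eef2, had 10, 12 and 9 counts with vehicle and 2, 4 and 3 with SHP099, a change of -1.93 ± 0.54 (edgeR adjusted p = 0.0299). Counts of this size leave the size of the change poorly determined, as the standard errors show. Snord110 and Snord37 are among 6 kept genes that reached 10 counts in no SHP099 library. Vehicle libraries alone took them past the minimum, which favours a decrease. Snord47, a guide for large-subunit ribosomal RNA, stood at 1.58, 0.668 and 0.657 CPM with vehicle and at 0.243, 0.261 and 0.257 CPM with SHP099. Vehicle replicate 1 was far above the other vehicle libraries, and all SHP099 libraries were below them, a change of -1.90 ± 0.39 (edgeR adjusted p = 0.00791). Snord34, also a guide for large-subunit ribosomal RNA, had evener libraries: 1.74, 1.74 and 1.91 CPM against 0.463, 0.663 and 0.848 CPM, or -1.45 ± 0.22 (edgeR adjusted p = 0.00206). The other box C/D genes among the 10 largest decreases were Snord95 at -1.43, Snord4a at -1.39, Snord53 at -1.36 and Snord68 at -1.24 on the log2 scale. Snord4a, with 10, 12 and 15 counts with vehicle and 7, 3 and 6 with SHP099, was the 1 kept gene that reached the minimum in mutant vehicle libraries alone, so it had to differ and its change is a description only.

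A box H/ACA gene, Snora70, gave the smallest adjusted p of the kept genes. Snora70, in the ribosomal protein gene Rpl10, was counted at 4.30, 3.98 and 4.73 CPM with vehicle and at 2.16, 1.97 and 2.24 CPM with SHP099. The spread within each group was small against the gap between them, which was -1.03 ± 0.12 on the log2 scale (adjusted p = 0.000703, edgeR). Snora65, a guide for large-subunit ribosomal RNA in Rpl12, stood at 4.39, 4.20 and 4.65 CPM against 2.25, 2.30 and 2.59 CPM, or -0.89 ± 0.14 (edgeR adjusted p = 0.00265). Snora68 stood at 3.70, 3.65 and 3.69 CPM against 2.05, 1.92 and 2.54 CPM, or -0.76 ± 0.15 (edgeR adjusted p = 0.00594). Snora64, in Rps2, was the exception among the 4 most abundant: at 1.77, 2.29 and 1.997 CPM against 1.43, 1.54 and 1.28 CPM its groups did not overlap, yet the change of -0.51 ± 0.22 did not pass (edgeR adjusted p = 0.133). Among less abundant genes, Snora75, in the nucleolin gene Ncl, had 31, 24 and 29 counts with vehicle and 8, 7 and 10 with SHP099, a change of -1.95 ± 0.30 (edgeR adjusted p = 0.0023). Snora44, in the non-coding host gene Snhg12, had 19, 19 and 24 counts against 6, 11 and 8, or -1.50 ± 0.36 (edgeR adjusted p = 0.0161). At the other end, Snora74a had 7, 2 and 5 counts with vehicle and 9, 5 and 11 with SHP099; its change of 0.61 ± 0.56 was the single positive one and did not pass. This gene met the minimum without any mutant vehicle library, so its positive change is a description only.

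**Figure D3:**
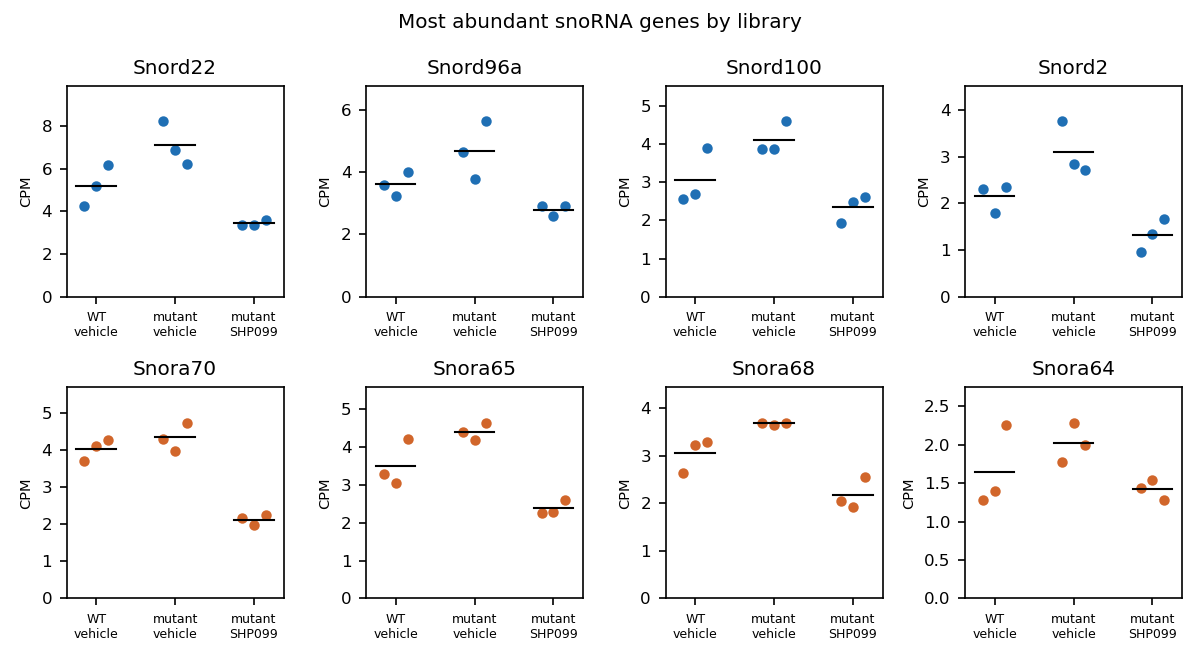
CPM per library of the 4 kept box C/D genes (blue) and 4 kept box H/ACA genes (orange) with the highest mean CPM; black lines are group means, and each axis starts at 0. In all 8 genes every SHP099 library lies below every mutant vehicle library. WT and mutant vehicle libraries overlap in some of them, such as Snora70, and not in others, such as Snord22.

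The count of 34 depended on single libraries: it was 20 without mutant vehicle replicate 3 and 22 without SHP099 replicate 2, and 25 without SHP099 replicate 3, the library with the high Rn45s share. Of all tested genes 8.11%, 8.22% and 8.19% fell in these fits, in the same order. The count was 11, with 54 of 59 changes negative and a median of -0.48, after a trend of each library over gene length and GC content had been removed. There 9.03% of all tested genes fell. Under 300 nucleotides, at the short end of that trend, lay 57 kept genes and 37 other tested genes. With the trend fitted on the other genes and applied to the kept genes 39 fell, beside 9.4% of all tested genes. Of 37 other tested genes with an annotated transcript under 300 nucleotides, 4 fell and 1 rose in the main fit, with a median of -0.25. Of all tested genes 13% fell and 8.81% rose there.

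With SHP099, changes of snoRNA genes lay below those of the host genes that hold them. For 55 kept genes the annotation gave 1 host on the same strand, and in 54 of these pairs the host was tested, over 40 different host genes. The snoRNA gene's log2 fold change with SHP099 lay below that of its host in 54 of 54 pairs, with a median difference of -0.88. Of the 40 hosts, 13 fell (32.5%) and 1 rose (2.5%), beside 13% and 8.81% of all tested genes. Among 33 snoRNA genes that fell and had a measured host, the host fell in 12, did not pass in 20 and rose in 1, which was Snora31 in Tpt1. By kind of host, 13 of 24 genes in ribosomal protein genes fell, 7 of 13 in non-coding hosts and 13 of 18 in other coding genes. The location bears on how reads were assigned: 24 of these 55 snoRNA genes were intronic in all annotated host transcripts that span them, while 31 overlapped an exon of at least 1 such transcript, and 11 and 22 of them fell.

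**Figure D4:**
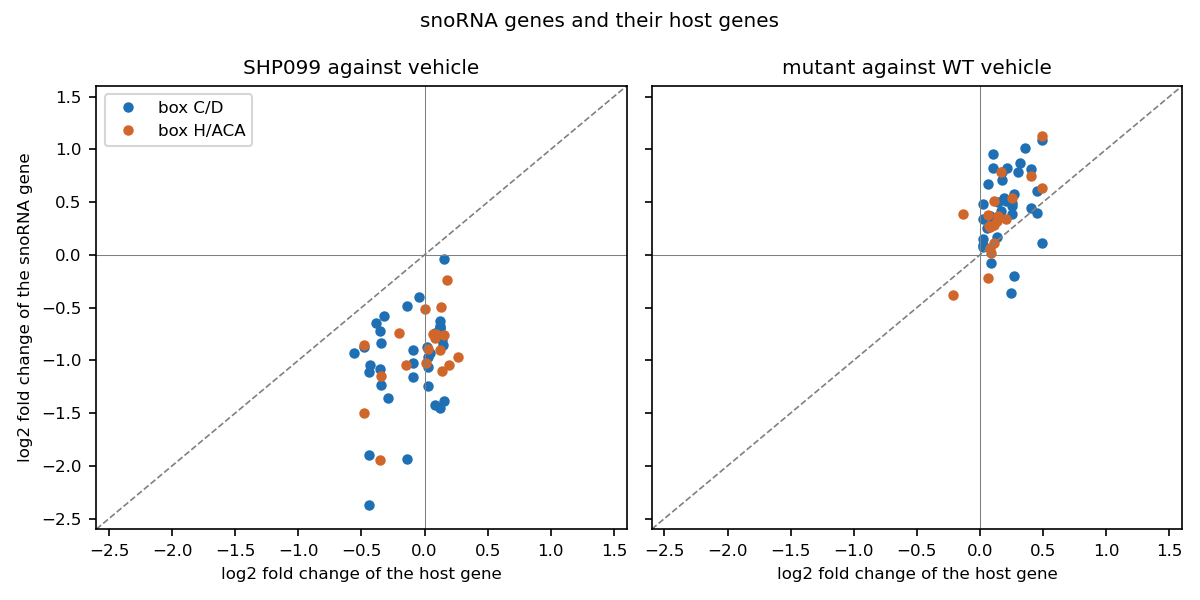
Log2 fold change of each kept snoRNA gene (vertical) against that of its host gene (horizontal), for SHP099 against vehicle in mutant cells (left) and mutant against WT with vehicle (right); the dashed line marks equal change. On the left 54 of 54 points lie below the line, and on the right 44 of 54 lie above it.

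Several hosts held more than 1 kept gene, which share a transcript and are not independent. Nop56, the gene of a box C/D core protein, fell by 0.44 on the log2 scale (edgeR adjusted p = 0.000392), and its 2 intronic genes changed by -2.37 (Snord110) and -1.11 (Snord57, edgeR adjusted p = 0.0324). Rpl13a did not pass (0.12, edgeR adjusted p = 0.21), while its Snord32a, Snord33, Snord34 and Snord35a changed by -0.63, -0.69, -1.45 and -0.68. Only Snord34 of these 4 passed. In the non-coding Snhg12, which fell by 0.48 (edgeR adjusted p = 0.0248), Snora44 changed by -1.50, Snora61 by -0.86 and Snord99 by -0.88. The non-coding host 2410006H16Rik was at -0.09 and its Snord49a, Snord49b and Snord65 at -0.90, -1.16 and -1.02. Rpl23a was at 0.15, with Snord42b at -0.04 and Snord4a, kept through its mutant vehicle counts alone, at -1.39; the difference between those was not tested.

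Mutant and WT cells, both with vehicle, were compared for the genotype without treatment. Of the 59 kept genes 7 rose and 1 fell (edgeR, adjusted p under 0.05), beside 16.9% and 14.7% of all tested genes, so the calls were no more frequent than over the table. The change was positive in 52 of 59 genes, with a median of 0.39 against 0.02 over all tested genes. Libraries did not overlap, with mutant above WT, for 22 of 59 genes (37.3%) and for 24.6% of all tested genes. Box C/D genes had a median of 0.47 with 5 higher of 36, and box H/ACA genes a median of 0.28 with 2 higher and 1 lower of 23. At an unadjusted p under 0.05 the higher counts were 14 and 5. The share of all tested genes at that level was not counted, so these counts show no excess.

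Snord12, in the non-coding host Zfas1, was the one of these 7 that passed under every alternative run: it stood at 1.40, 1.51 and 2.16 CPM in WT and at 3.16, 3.24 and 2.95 CPM in mutant libraries. The groups did not overlap, and the change was 0.87 ± 0.18 (edgeR adjusted p = 0.00578). Snord99 had 11, 5 and 16 counts in WT and 22, 29 and 20 in mutant libraries, a change of 1.09 ± 0.31 (edgeR adjusted p = 0.0245). Its neighbours in Snhg12, Snora44 and Snora61, changed by 1.12 ± 0.36 and 0.64 ± 0.20 (edgeR adjusted p = 0.0375 and 0.033), beside 0.49 for Snhg12 itself. Snord53, in Wdr43, changed by 1.01, Snord83b, in Rpl3, by 0.78, and Snord22, in Snhg1, by 0.45. Snord22 stood at 4.23, 5.18 and 6.15 CPM in WT, and its lowest mutant library, at 6.21 CPM, was just above the highest of these (edgeR adjusted p = 0.0474). By kind of host, 5 of 13 genes in non-coding hosts rose, 1 of 24 in ribosomal protein genes and 1 of 18 in other coding genes. Of all tested genes 16.9% rose, and the difference between kinds was not tested. Snora74a was the 1 gene that fell, with 19, 8 and 13 counts in WT and 7, 2 and 5 in mutant libraries, a change of -1.55 ± 0.52 (edgeR adjusted p = 0.0476). As given above, it met the minimum without any mutant vehicle library, which favours a decrease here, so this change is a description only. The most abundant box H/ACA gene, Snora70, stood at 3.69, 4.10 and 4.25 CPM in WT, overlapping the mutant libraries, and changed by 0.11 ± 0.12 (edgeR adjusted p = 0.512). The log2 fold change of the snoRNA gene lay above that of its host in 44 of 54 pairs, with a median difference of 0.25. Of the 40 hosts 16 rose and 0 fell, beside 16.9% and 14.7% of all tested genes. The count of 7 was not stable: it was 1 without WT replicate 1, 3 without WT replicate 2, 2 without mutant vehicle replicate 1, 4 without mutant vehicle replicate 3 and 4 without SHP099 replicate 3, and the call of Snora74a was lost without each library but mutant vehicle replicate 1. For the counts of genes that rose, the shares of all tested genes were 13.9%, 10.2%, 14.7%, 10% and 12.6%, in the same order.

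SHP099-treated mutant cells were also set beside WT cells with vehicle, a comparison that joins genotype and treatment and shares its libraries with the comparisons above. Of the 59 kept genes 16 fell and 0 rose (edgeR, adjusted p under 0.05; 0 rose at an unadjusted p under 0.05 or with DESeq2), beside 16.3% and 15.4% of all tested genes. The median change was -0.50, and 54 of 59 were negative. Among them were 8 of 36 box C/D genes, with a median of -0.45, and 8 of 23 box H/ACA genes, with a median of -0.57. Snora70 gave the smallest adjusted p, with a change of -0.92 ± 0.12 (edgeR adjusted p = 0.00096) from WT libraries of 3.69 to 4.25 CPM to SHP099 libraries of 1.97 to 2.24 CPM. Snord57, a guide for small-subunit ribosomal RNA, had 30, 36 and 59 counts in WT and 16, 16 and 28 in SHP099 libraries, a change of -1.31 ± 0.31 (edgeR adjusted p = 0.0119). Snord110 changed by -1.80 ± 0.48, Snora75 by -1.20 ± 0.32 and Snord34 by -0.97 ± 0.23, each with libraries that did not overlap. As given above, Snord110 and Snord37 reached 10 counts in no SHP099 library. The other box C/D genes that fell were Snord37 at -2.01, Snord95 at -1.06, Snord68 at -0.91, Snord2 at -0.72 and Snord22 at -0.60. In box H/ACA they were Snora31 at -0.95, Snora81 at -0.80, Snora52 (in Rplp2) at -0.67, Snora65 at -0.57, Snora68 at -0.49 and Snora7a (in Rpl32) at -0.49; of these 11 genes the libraries overlapped in Snora31 alone. Snord12, by contrast, was at 1.63, 1.92 and 1.70 CPM with SHP099, within the WT range, and changed by 0.04 ± 0.18 (edgeR adjusted p = 0.894). The count of 16 was 4 without WT replicate 3, 7 without SHP099 replicate 1, 7 without SHP099 replicate 2 and 10 without SHP099 replicate 3. Beside these, 13.1%, 13.6%, 12.4% and 13.1% of all tested genes fell, in the same order.

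The proteins that bind, assemble and trim these RNAs were read from lists of 41 measured genes. With SHP099 14 fell and 0 rose (edgeR; 13% and 8.81% of all tested genes). In mutant against WT cells 28 rose and 0 fell (16.9% and 14.7% of all tested genes), and in SHP099-treated mutant against WT cells 13 rose and 4 fell (15.4% and 16.3%). These changes were small: the log2 fold changes with SHP099 ran from -0.47 to 0.14, with a median of -0.10. Of the box C/D core proteins, Nop56 and Nop58 fell with SHP099, by 0.44 and 0.26 on the log2 scale, while Fbl, the methyltransferase, was at -0.11 (edgeR adjusted p = 0.18). Of the box H/ACA core proteins, Dkc1, the pseudouridine synthase, fell by 0.17 (edgeR adjusted p = 0.028), and Gar1, Nhp2 and Nop10 did not pass, at -0.12, -0.09 and 0.14. Naf1, an assembly factor of box H/ACA particles, fell by 0.39, and Ruvbl2 and Rpap3, which assemble box C/D particles, by 0.21 and 0.16. Nolc1 and Tcof1, nucleolar phosphoproteins, fell by 0.41 and 0.47, and Tgs1, a cap methyltransferase, by 0.19. Of 17 genes for trimming and release, the nucleases Dis3, Exosc10, Xrn1 and Xrn2 and the poly(A) polymerase Papd5 fell, by 0.38, 0.15, 0.42, 0.12 and 0.29, and the lariat debranching enzyme Dbr1 was at -0.11 (edgeR adjusted p = 0.095).

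Of 4 tested other RNAs without a poly(A) tail, Rn45s rose with SHP099, as given above, and the remaining 3 did not pass. The 9 Scarna symbols together had 10 to 12 counts in WT, 7 to 14 in mutant vehicle and 9 to 40 in SHP099 libraries, the 40 in replicate 3. Rmrp and Rpph1, RNA parts of ribonuclease complexes, changed by 2.87 and 1.15 with SHP099 and did not pass (edgeR adjusted p = 0.0611 and 0.372), with SDs in the SHP099 group above its means. Rnu73b changed by -0.87 ± 0.35 (edgeR adjusted p = 0.102), with all SHP099 libraries below the vehicle libraries. Malat1, a nuclear RNA with an unusual 3′ end, averaged 333 ± 79.3 CPM with vehicle and 152 ± 25.3 with SHP099 (SD, n = 3), a change of -1.13 ± 0.16 (edgeR adjusted p = 0.00161). Neat1, another nuclear RNA, stood at 180 ± 7.29 and 172 ± 18.1 CPM, a change of -0.06 ± 0.11 (edgeR adjusted p = 0.727).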

How the data were processed

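Gene counts were deposited by the authors as 1 table of raw counts per gene symbol and library. Per the submitters' processing notes, FastQC, STAR and featureCounts of Subread were used with mm10; versions, annotation, strand setting and the handling of reads that map to several places or overlap 2 genes are not stated there. Per the labels' protocols, libraries were made with a stranded mRNA kit.

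The 9 libraries were fitted together with edgeR 4.0.16 (R 4.3.3; limma 3.58.1): filterByExpr with a minimum of 10 counts, TMM scaling, a quasi-likelihood test by group and Benjamini-Hochberg adjustment over the 13270 genes tested, with a threshold of 0.05. DESeq2 1.42.0 was an alternative. The p-values measure the spread between these cultures. The main fit held no term for the pairing of mutant libraries described below, so paired libraries counted as separate cultures. CPM use TMM-scaled library sizes. Coordinates, hosts and sequences come from GENCODE M21 (GRCm38); hairpins come from RefSeq. Copies were sought with BLAST 2.17.0. A host is the gene on the same strand whose span holds the snoRNA gene. The genes, lists and tests were chosen with earlier results of these data known. Named are all called genes of a contrast if at most 20, otherwise the 10 largest changes each way, the 4 most abundant of each class, their hosts and called genes of the protein lists; genes sharing a host with a named one and uncalled protein genes were added after their values were seen. Flanking windows as a motif background were not run. On simulated counts with 200 changed genes, a log2 change of 1 was recovered in 75% of genes for SHP099 against vehicle. Those genes were drawn from all tested genes, so the 75% does not describe genes with as few counts as most kept genes.

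Equal replicate numbers pair the mutant vehicle and SHP099 libraries, which the design describes as cultures of individual mice: same-numbered deviations from the group means correlated at 0.54, 0.60 and 0.56 over 13270 genes, those of WT and mutant at -0.07, -0.11 and -0.13.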

Additional observations from a re-analysis of the deposited data

How the results depend on the processing

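The depth limits these results: most kept genes had few counts, so a change that missed the threshold is not shown to be absent. The kept genes lower with SHP099 (34) numbered 19 with DESeq2, which gave no adjusted p for 35 of the 59 kept genes. They were 19 of the 23 that reached 1 CPM in 3 libraries, 11 with the length and GC trend removed, and 20 to 33 when each library was left out. Of all tested genes 9.26%, 13.2%, 9.03% and 8.11% to 13.1% fell in these settings, in the same order. Genes higher in mutant than WT cells (7) numbered 2 with DESeq2 and 3 of the 23 at 1 CPM. With the 2 groups alone they were 3 of 56 tested. They numbered 1 with the trend removed, 10 with it fitted without snoRNA genes and 1 to 7 with a library left out. The shares of all tested genes that rose were 10.9%, 15.8%, 11%, 14.3%, 14.5% and 10% to 14.7%, in the same order. The 1 gene lower in mutant than WT cells, Snora74a, became 0 with DESeq2, with no low-count filter and with the 2 groups alone. It also became 0 with the trend fitted without snoRNA genes, and 0 to 1 with a library left out. At 1 CPM it was too low to be tested. Genes lower in SHP099-treated mutant than WT cells (16) numbered 10 with DESeq2, 10 of 52 tested with the 2 groups alone, 8 with the trend removed and 4 to 17 with a library left out. Beside these, 12.1%, 15.8%, 13.4% and 12.4% to 16.6% of all tested genes fell, in the same order. No called change of a named snoRNA gene turned direction under the alternatives run. Among all kept genes, called or not, 57 instead of 58 changes with SHP099 were negative without mutant vehicle replicate 1 and without SHP099 replicate 1. With the length and GC trend removed 54 were negative. With the replicate block in all 9 libraries 32 genes were lower with SHP099, and with the block in the 6 mutant libraries alone, chosen after seeing the data, 44 of 56 tested, beside 21.3% of all genes there.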
